A study of Homo sapiens with 24 samples.

Results

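Bone morphogenetic proteins (BMPs) and growth and differentiation factors (GDFs) are secreted signalling proteins, and their activity outside the cell is held down by secreted antagonists. The 10 genes described here are the ligands BMP2, BMP4, BMP5, BMP6, BMP7, GDF6 and GDF7 and the antagonists NOG, CHRD and GREM1. They were chosen by name and role, but with earlier results of these data known. Shares of them that changed are therefore descriptive. They are 10 of the 61551 genes counted, 7 of them ligands and 3 of them antagonists. RNA was sequenced from H9 cells, an established line of human embryonic stem cells (hESCs), both undifferentiated and as neuroectoderm after 5 days of differentiation, in 4 genotypes with 3 libraries each at both stages, 24 libraries in all. HAR123, a noncoding sequence in the SMG6 gene that changed quickly in the human lineage and acts as an enhancer, was intact in hHAR123 cells (wild type), was deleted from both alleles with CRISPR-Cas9 in HAR123-KO cells, and was exchanged for its chimpanzee ortholog in cHAR123 cells or its mouse ortholog in mHAR123 cells.

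All genotypes were differentiated in a medium with 10% serum replacement, 500 ng/ml of Noggin protein and 10 μM SB431542, an inhibitor of activin and TGF-β receptors. The added Noggin is a protein, so reads of NOG come from the cells' own RNA. A pair of clones represented each genotype. Which clone gave which library is not given in the sources used here, so p-values measure the spread between these libraries. HAR123 is not a counted feature, so the deletion was not checked in the RNA. In neuroectoderm, the study's published differential expression table assigns the libraries of the chimpanzee and mouse orthologs the other way round from the column labels of the counts. Values are given here by column label, and which assignment is right was not settled.

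BMP ligands bind pairs of type I and type II receptor kinases, which phosphorylate SMAD1, SMAD5 and SMAD9. These SMADs enter the nucleus with SMAD4 and switch on genes such as those of the ID and MSX families. Noggin, chordin and gremlin bind the ligands and keep them from their receptors. In the early embryo low BMP activity allows ectoderm to become neural, whereas ligands from the surface ectoderm and later from the roof plate pattern the dorsal neural tube and its border, where neural crest arises.

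The hESC libraries held 23334732 to 35198684 counts and the neuroectoderm libraries 21022748 to 25978892. Levels of 1 gene across libraries are given as CPM, the count scaled to the library's total and to a fixed library size of 1000000. Levels of different genes are compared in TPM, which also divide by exon length before the scaling. A gene was called higher or lower when edgeR's quasi-likelihood test gave an adjusted p under 0.01 and the log2 fold change was over 1 in size. "Higher", "lower", "rose" and "fell" are used of a test in this sense. The summed level of 8 neuroectoderm markers was 245 to 265 CPM in hESCs and 2044 to 2088 CPM in hHAR123 neuroectoderm, and that of 8 pluripotency markers was 5120 to 5506 CPM in hESCs and 2201 to 2314 CPM in hHAR123 neuroectoderm. In bulk RNA, fewer cells of a type and less RNA per cell cannot be told apart.

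In hHAR123 hESCs, BMP7 was the most abundant ligand RNA per length, at 4.48 ± 0.168 TPM (SD, n = 3, as for all group values). BMP2 followed at 2.14 ± 0.0220 TPM, then BMP6 at 1.36 ± 0.0951 TPM and BMP4 at 1.22 ± 0.239 TPM. The last pair differed by less than the spread between libraries. GDF7 stood at 0.494 ± 0.0826 TPM and GDF6 at 0.259 ± 0.0541 TPM. CHRD, at 0.247 ± 0.0530 TPM, and NOG, at 0.218 ± 0.0636 TPM, differed from GDF6 and from each other by less than their spread. GREM1 was at 0.0370 ± 0.0120 TPM. BMP5 had no count in any of the 3 libraries, which allows up to 0.0901 CPM at 3 counts per library, a limit that covers counting error only.

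In hHAR123 neuroectoderm the order was different. BMP2, a ligand of the dorsal midline and surface ectoderm, led at 14.6 ± 0.342 TPM, ahead of BMP7 at 4.62 ± 0.250 TPM and NOG at 3.20 ± 0.641 TPM. GDF7, the roof plate ligand, was at 1.47 ± 0.0555 TPM and BMP5 at 1.29 ± 0.207 TPM, neighbours within their spread. CHRD followed at 1.0 ± 0.0645 TPM and GDF6 at 0.910 ± 0.142 TPM, again within their spread. BMP4 was at 0.569 ± 0.0747 TPM, BMP6 at 0.412 ± 0.0456 TPM and GREM1 at 0.0993 ± 0.00482 TPM. This order rests on division by exon length. Without it, GDF7 was at 7.27 CPM, CHRD at 3.54 CPM and NOG at 3.27 CPM. The same holds for hHAR123 hESCs, where GDF7 was at 2.53 CPM and BMP4 at 2.09 CPM. The plot of CPM by library shows all 10 genes in all 24 libraries.

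**Figure D1:**
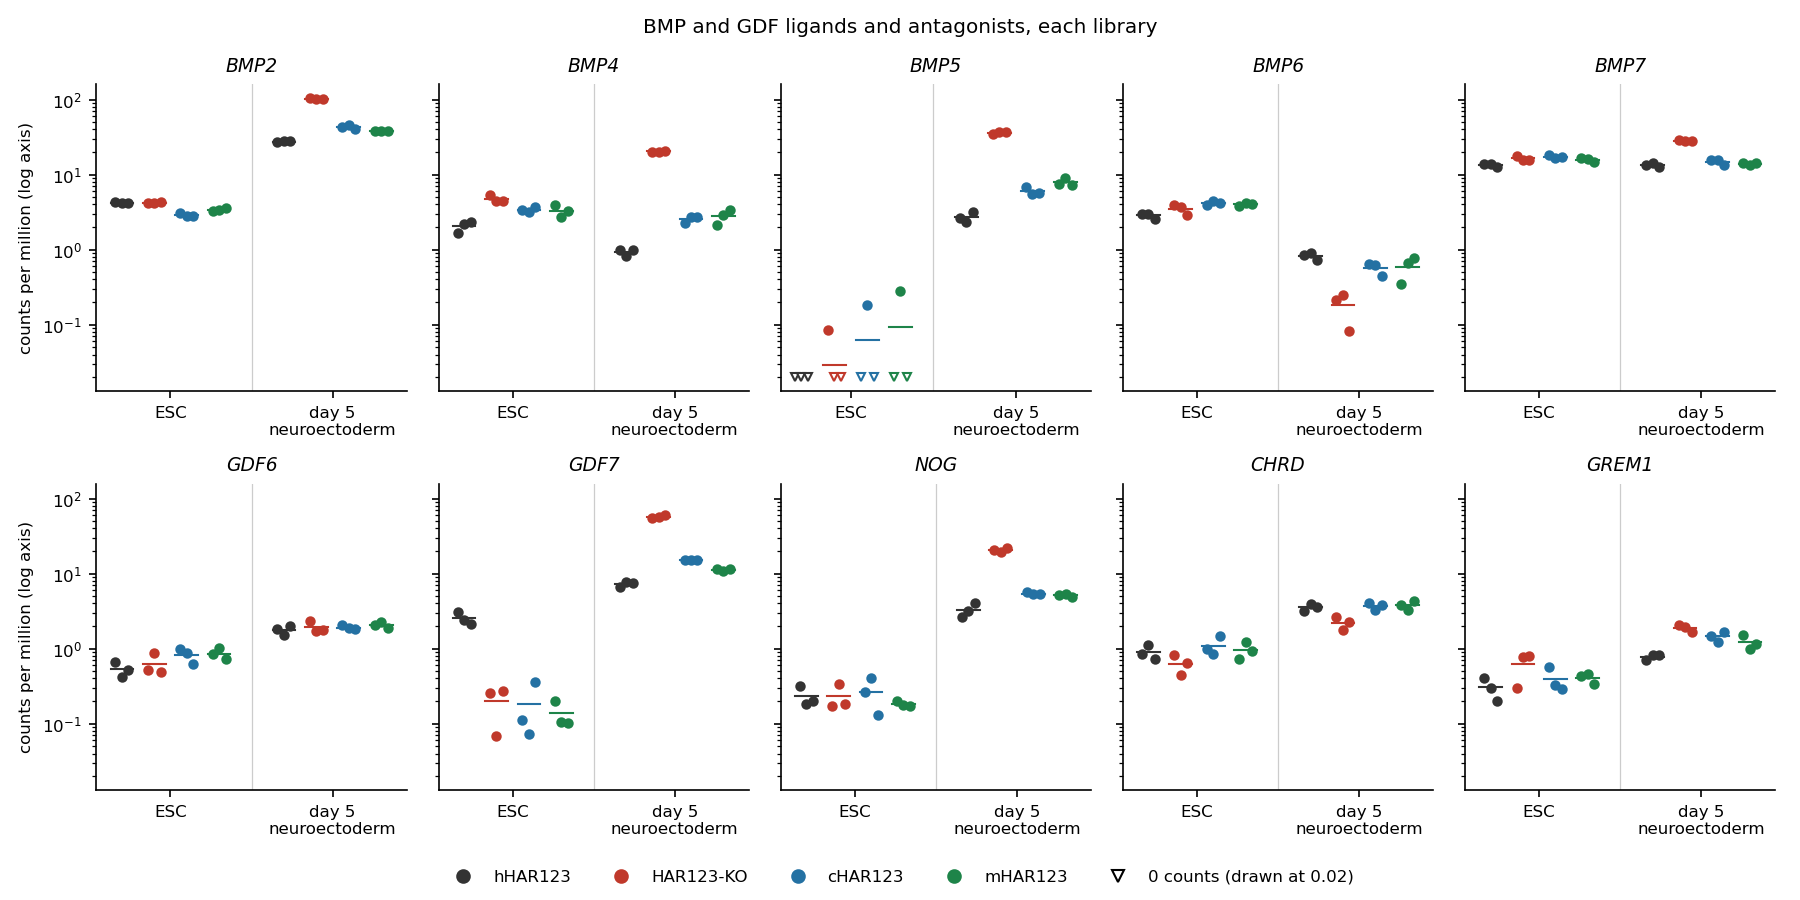
CPM (log axis) of each of the 10 genes in every library, hESCs at the left and day 5 neuroectoderm at the right of each panel, coloured by genotype, with a line at the mean of 3 libraries and open triangles for 0 counts. The HAR123-KO neuroectoderm libraries lie above those of every other genotype for BMP2, BMP4, BMP5, BMP7, GDF7, NOG and GREM1, and GDF7 in hESCs lies between 2.10 and 3.06 CPM in hHAR123 and at or below 0.359 CPM in the edited genotypes.

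Between the stages in hHAR123, 7 of the 10 genes rose (24.6% of all genes tested rose) and 2 fell (21.2% of all genes tested fell). The rise was largest for BMP5, from no count to 2.66, 2.36 and 3.16 CPM, which is at least 30.3-fold against 3 counts per library. NOG, which was at 0.316, 0.181 and 0.199 CPM in hESCs and 2.66, 3.14 and 4.01 CPM in neuroectoderm, rose by a log2 fold change of 3.52 (SE 0.28). BMP2 went from 4.26, 4.19 and 4.15 CPM to 27.1, 27.7 and 27.7 CPM, a log2 fold change of 2.42 (SE 0.08). CHRD at 1.68 (SE 0.19), GDF6 at 1.46 (SE 0.26) and GDF7 at 1.24 (SE 0.13) rose by less on the log2 scale. GREM1 was near the thresholds, with a log2 fold change of 1.09 (SE 0.35, adjusted p = 0.0047). It was not called without hESC replicate 2 (1.07) or 3 (0.83), without neuroectoderm replicate 2 (1.03) or 3 (1.05), or with DESeq2 (1.02).

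BMP4 and BMP6 were the ligands that fell in hHAR123. BMP4, a ligand active in mesoderm and surface ectoderm, was at 1.67, 2.23 and 2.36 CPM in hESCs and 0.999, 0.827 and 0.982 CPM in neuroectoderm, a log2 fold change of -1.45 (SE 0.22). BMP6 was at 2.97, 3.01 and 2.59 CPM and then at 0.856, 0.909 and 0.726 CPM, a log2 fold change of -2.06 (SE 0.21). The hESC and neuroectoderm libraries did not overlap for either gene. BMP7 was at 13.9, 13.8 and 12.6 CPM in hESCs and 13.3, 14.2 and 12.6 CPM in neuroectoderm, and its log2 fold change of -0.30 (SE 0.08) passed the p threshold without reaching the fold threshold. Scaling by library totals in place of TMM raised log2 fold changes between the stages by 0.29 in hHAR123, by 0.20 in HAR123-KO, by 0.21 in cHAR123 and by 0.17 in mHAR123, and under it BMP7 stood at -0.0050 in hHAR123. No call between the stages depended on this choice.

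In HAR123-KO neuroectoderm, 7 of the 10 genes were higher than in hHAR123 neuroectoderm: BMP2, BMP4, BMP5, BMP7, GDF7, NOG and GREM1. Among all 21362 genes tested, 4.92% were higher. BMP6 alone was lower, where 4.52% of all genes tested were lower. CHRD passed only the p threshold, and GDF6 passed neither. The median log2 fold change of the 10 genes was 1.63, and that of all genes tested was 0.00092.

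BMP4 had the largest change among the ligands. Its libraries were at 20.2, 20.1 and 21.0 CPM in HAR123-KO and at 0.999, 0.827 and 0.982 CPM in hHAR123, a log2 fold change of 4.49 (SE 0.13, adjusted p = 5.62e-34). BMP4 lies at chr14:53949736-53958761 on the minus strand (GRCh38, as are all positions here).

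BMP5 was at 34.8, 37.5 and 36.7 CPM in HAR123-KO and at 2.66, 2.36 and 3.16 CPM in hHAR123, a log2 fold change of 3.79 (SE 0.09, adjusted p = 5.52e-37). GDF7, which drives the formation of dorsal interneurons from the roof plate, was at 56.0, 57.0 and 60.1 CPM against 6.71, 7.69 and 7.43 CPM, a log2 fold change of 3.03 (SE 0.07, adjusted p = 1.28e-38). For these 2 genes, as for BMP4, every knockout library exceeded every hHAR123 library several-fold. BMP2 (chr20:6767686-6780246, plus strand) was already the leading ligand in hHAR123. Its libraries stood at 104, 103 and 102 CPM in the knockout and at 27.1, 27.7 and 27.7 CPM in hHAR123, a log2 fold change of 1.95 (SE 0.05, adjusted p = 8.16e-38). BMP7 (chr20:57168753-57266641, minus strand), which can pair with BMP2 or BMP4 in a heterodimer, was at 29.3, 27.8 and 28.1 CPM against 13.3, 14.2 and 12.6 CPM. Its log2 fold change of 1.14 (SE 0.07) was the smallest of the ligands that were higher.

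BMP6 went the other way. The knockout libraries held 5, 6 and 2 counts of BMP6, or 0.215, 0.250 and 0.0817 CPM, and the hHAR123 libraries held 18, 22 and 17 counts, or 0.856, 0.909 and 0.726 CPM. The log2 fold change was -2.11 (SE 0.43, adjusted p = 3.42e-05), and the groups did not overlap. GDF6, which shapes the dorsal retina and skeletal joints, was at 2.37, 1.71 and 1.76 CPM in HAR123-KO and 1.86, 1.53 and 2.01 CPM in hHAR123. These groups overlapped, and the 95% interval of the log2 difference, -0.24 to 0.57, spans changes of that size in either direction.

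RefSeq promoter entries (GRCh38.p14) were used for 6 of the 10 genes, BMP4, BMP5, BMP6, GDF7, CHRD and GREM1. No entry was used for BMP2, BMP7, GDF6 and NOG. Among the entries used, the 250 bases before the annotated start are shown for the 3 ligands whose window touched no annotated exon. These were GDF7 and BMP5, which were higher in the knockout, and BMP6, which was lower. The windows of BMP4 touched annotated exons and are not shown. They read 5′ to 3′ on the strand of the gene, and capitals mark TATAAA, the TATA box of core promoters, or GCCNNNGGC, a core bound by TFAP2 factors. The windows are chr2:20666894-20667143 on the plus strand for GDF7, chr6:55875591-55875840 on the minus strand for BMP5 and chr6:7725849-7726098 on the plus strand for BMP6.
GDF7: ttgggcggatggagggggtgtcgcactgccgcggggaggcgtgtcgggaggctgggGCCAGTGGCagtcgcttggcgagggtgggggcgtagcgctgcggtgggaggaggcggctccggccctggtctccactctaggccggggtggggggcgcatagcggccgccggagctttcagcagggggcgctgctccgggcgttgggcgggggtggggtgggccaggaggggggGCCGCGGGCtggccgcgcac
BMP5: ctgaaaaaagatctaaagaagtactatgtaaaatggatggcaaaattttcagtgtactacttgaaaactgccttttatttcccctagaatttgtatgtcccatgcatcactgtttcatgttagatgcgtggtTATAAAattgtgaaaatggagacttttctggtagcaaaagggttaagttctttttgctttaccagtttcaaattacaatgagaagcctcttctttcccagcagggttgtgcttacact
BMP6: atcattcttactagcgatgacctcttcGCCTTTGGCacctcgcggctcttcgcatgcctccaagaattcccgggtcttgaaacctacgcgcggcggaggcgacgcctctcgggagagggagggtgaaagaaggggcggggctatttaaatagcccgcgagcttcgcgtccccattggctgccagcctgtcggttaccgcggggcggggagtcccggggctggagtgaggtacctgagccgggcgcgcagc
The GDF7 window was 77.6% G or C, above 93.8% of the 35116 promoter windows, with 26 CpG dinucleotides. The BMP5 window was 35.6% G or C, above only 6.19% of windows, with 1 CpG. The BMP6 window, with 26 CpG like GDF7, was 64.4% G or C.

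Motifs were searched on both strands, and positions count back from the base before the start, which is -1. GCCNNNGGC stood at -194 and -20 before GDF7 and at -223 before BMP6, and 19.8% of all windows of this length held it. TATAAA stood at -118 before BMP5, and 10.7% of all windows held it. GGCGCC, a site bound by BMP SMADs, and CTTTGAT, bound by TCF and LEF factors, were in none of the 3 windows shown. In windows not shown, GGCGCC stood at -10 for CHRD, at -232 for BMP4 and at -83 and -52 for GREM1. GCCNNNGGC stood there at -57 for CHRD and at -58 and -39 for GREM1. Of all windows, 16.4% held GGCGCC and 2.26% held CTTTGAT. GDF7 and BMP5, both higher in the knockout, thus had windows at opposite ends of base composition, and a match of these letters is a description of the window only.

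The antagonists differed among themselves in HAR123-KO neuroectoderm. NOG (chr17:56593699-56595611, plus strand), which encodes the antagonist noggin, was at 20.6, 19.7 and 21.9 CPM in HAR123-KO and at 2.66, 3.14 and 4.01 CPM in hHAR123. Its log2 fold change was 2.71 (SE 0.10, adjusted p = 3.36e-28). GREM1 (chr15:32718004-32745106, plus strand), an antagonist that favours BMP2 and BMP4, was at 2.07, 1.96 and 1.68 CPM against 0.714, 0.827 and 0.811 CPM, a log2 fold change of 1.32 (SE 0.25, adjusted p = 9.06e-06). CHRD (chr3:184380073-184390736, plus strand), which encodes the antagonist chordin, was at 2.63, 1.75 and 2.25 CPM against 3.19, 3.88 and 3.54 CPM. The groups did not overlap, and the log2 fold change of -0.64 (SE 0.17, adjusted p = 0.00137) did not reach the fold threshold.

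Markers of dorsal fates moved with these genes. All 8 neural crest markers were higher in HAR123-KO neuroectoderm, and their summed level was 1758 to 1769 CPM in HAR123-KO and 119 to 126 CPM in hHAR123. Of 8 markers of the roof plate and dorsal neural tube, a list that itself holds GDF7, 7 were higher, with sums of 386 to 388 CPM and 61.8 to 64.6 CPM. Of 8 neuroectoderm markers, SIX3, LHX2, SOX2 and SOX1 were lower, and the sum was 928 to 948 CPM against 2044 to 2088 CPM. None of these sums overlapped between the genotypes.

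Markers of other lineages were also measured. The sums in HAR123-KO and hHAR123 were 310 to 319 and 279 to 286 CPM for 8 surface ectoderm markers, of which 7 were tested and TFAP2C, GATA3 and DLX3 were higher. They were 21.0 to 22.7 and 10.5 to 11.3 CPM for 7 mesoderm markers, of which KDR was higher and TBXT, HAND1, MIXL1 and EOMES had at most 3 counts in every knockout library. They were 51.3 to 55.3 and 47.7 to 48.7 CPM for 6 endoderm markers, of which SOX17, FOXA2, GATA4, GATA6 and AFP had at most 3 counts in every knockout library. They were 88.0 to 90.2 and 5.42 to 5.85 CPM for 6 amnion and trophectoderm markers. TFAP2C, which neural crest and surface ectoderm also express, was at 87.4 ± 0.868 CPM in HAR123-KO, and CDX2 and CGA had at most 3 counts. The surface ectoderm list holds TFAP2C as well. Without this gene, the surface ectoderm sum was smaller in HAR123-KO than in hHAR123. The sum of 8 pluripotency markers was 1699 to 1736 and 2201 to 2314 CPM, with L1TD1 and ZFP42 higher and SOX2 lower. SOX2 is also in the neuroectoderm list, so the pluripotency and neuroectoderm sums are not independent. The part of these markers in the change of the ligands and antagonists was not tested.

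**Figure D2:**
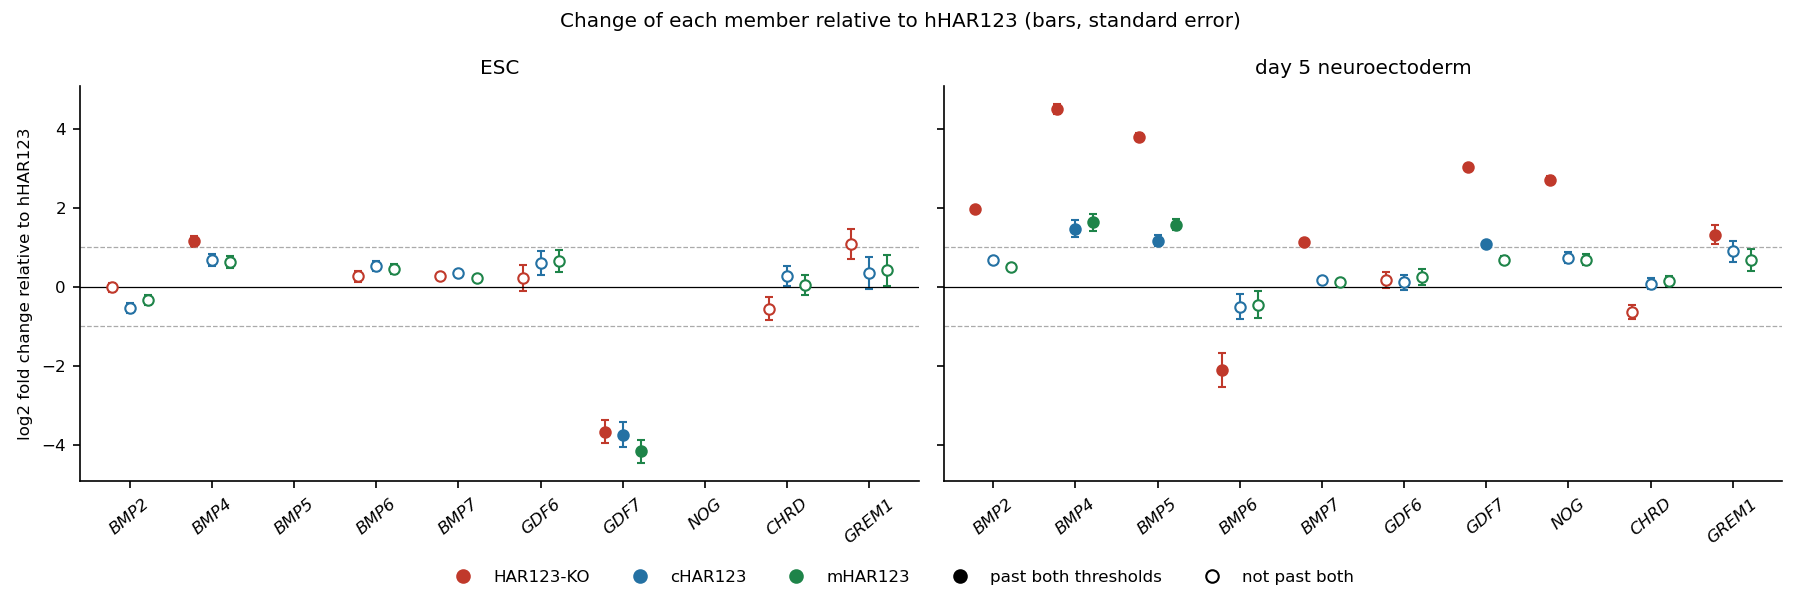
Log2 fold change relative to hHAR123 of the 10 genes in hESCs (left) and day 5 neuroectoderm (right) for HAR123-KO, cHAR123 and mHAR123, with bars for the standard error and filled points past both thresholds. In hESCs GDF7 lies between -3.66 and -4.17 in all 3 edited genotypes, and in neuroectoderm the HAR123-KO points of BMP4, BMP5, GDF7, NOG and BMP2 lie above those of the replacement genotypes.

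In hESCs the genotypes differed mainly in GDF7. HAR123-KO hESCs had lower GDF7 and higher BMP4 than hHAR123 hESCs, and 8 of the 10 genes could be tested, all but BMP5 and NOG. Of all genes tested, 0.96% were higher and 0.221% lower. GDF7 (chr2:20667144-20679243, plus strand) held 97, 81 and 74 counts in hHAR123, or 3.06, 2.44 and 2.10 CPM, and 6, 2 and 9 counts in HAR123-KO, or 0.257, 0.0680 and 0.273 CPM. The log2 fold change was -3.66 (SE 0.30, adjusted p = 5.08e-13). GDF7 was thus low in the undifferentiated knockout cells and high in the neuroectoderm made from them.

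BMP4 was at 5.31, 4.49 and 4.42 CPM in HAR123-KO hESCs and at 1.67, 2.23 and 2.36 CPM in hHAR123 hESCs, a log2 fold change of 1.15 (SE 0.14, adjusted p = 2.05e-08). It was therefore higher in the knockout at both stages. BMP7, at 17.9, 15.7 and 15.9 CPM against 13.9, 13.8 and 12.6 CPM, passed the p threshold only, with a log2 fold change of 0.27. BMP2 (-0.01), BMP6 (0.26), GDF6 (0.23) and CHRD (-0.55) passed neither threshold on the log2 scale. GREM1, at 1.08, was past the fold threshold but not the p threshold (adjusted p = 0.0383).

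GDF7 was also lower in cHAR123 and mHAR123 hESCs, and no other member was called in either. In cHAR123, GDF7 held 3, 2 and 11 counts, or 0.113, 0.0738 and 0.359 CPM, and its log2 fold change against hHAR123 was -3.74 (SE 0.31). Without cHAR123 replicate 3, the library with 11 counts, it was -4.74. In mHAR123, GDF7 held 7, 3 and 3 counts, or 0.203, 0.105 and 0.102 CPM, with a log2 fold change of -4.17 (SE 0.30). Every library of the 3 edited genotypes was below every hHAR123 library. Among all genes tested, 0.626% were higher and 0.225% lower in cHAR123, and 1.03% were higher and 0.199% lower in mHAR123. These 3 comparisons share the hHAR123 libraries.

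Smaller differences passed only the p threshold. BMP4 was at 3.38, 3.14 and 3.65 CPM in cHAR123 hESCs, a log2 fold change of 0.67, and at 3.88, 2.74 and 3.28 CPM in mHAR123 hESCs, a log2 fold change of 0.63. BMP6 differed from hHAR123 by 0.52 in cHAR123 and by 0.46 in mHAR123 on the log2 scale. In cHAR123, BMP2 differed by -0.55 and BMP7 by 0.34 as well. Between the edited genotypes in hESCs no member was past both thresholds with edgeR. BMP2 differed by -0.53 and BMP4 by -0.47 between cHAR123 and HAR123-KO, and BMP4 differed by -0.51 between mHAR123 and HAR123-KO, all on the p threshold alone. Of all genes tested, 0.271%, 0.244% and 0.158% were called between cHAR123 and HAR123-KO, mHAR123 and HAR123-KO, and mHAR123 and cHAR123. GDF7, at 0.0680 to 0.359 CPM in the edited genotypes, was too low for a test among them.

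BMP5 was close to absent from hESCs of every genotype. Of the 12 hESC libraries, 9 had no count, and the others were HAR123-KO replicate 1 with 2 counts, cHAR123 replicate 2 with 5 and mHAR123 replicate 2 with 8. NOG was at 4 to 11 counts, or 0.131 to 0.406 CPM, in all 12 hESC libraries. Neither gene could be compared between genotypes before differentiation.

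In neuroectoderm with a replaced HAR123, BMP4 and BMP5 were higher than in hHAR123 under both labels, and GDF7 under the label cHAR123. BMP4 was at 2.28, 2.70 and 2.69 CPM in the libraries labelled cHAR123, a log2 fold change of 1.46 (SE 0.22, adjusted p = 2.04e-06). It was at 2.16, 2.90 and 3.42 CPM in those labelled mHAR123, a log2 fold change of 1.63 (SE 0.22, adjusted p = 5.94e-07). All 6 libraries exceeded the hHAR123 range of 0.827 to 0.999 CPM.

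BMP5 was at 6.80, 5.58 and 5.69 CPM in the libraries labelled cHAR123, a log2 fold change of 1.16 (SE 0.14). It was at 7.39, 9.03 and 7.23 CPM in those labelled mHAR123, a log2 fold change of 1.57 (SE 0.13). GDF7 was at 15.4, 15.0 and 15.2 CPM in the libraries labelled cHAR123, and its log2 fold change of 1.07 (SE 0.09) was just past the fold threshold. In the libraries labelled mHAR123 it was at 11.4, 10.8 and 11.7 CPM, and its log2 fold change of 0.67 (SE 0.10) was not. The called members were thus 3 of 10 in the libraries labelled cHAR123 and 2 of 10 in those labelled mHAR123, with 0 lower by edgeR in either. Of all genes tested, 0.522% were higher and 0.456% lower under the label cHAR123, and 0.603% were higher and 0.429% lower under the label mHAR123.

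BMP2 and NOG passed the p threshold alone in both. BMP2 was at 42.9, 45.4 and 41.1 CPM in the libraries labelled cHAR123 (log2 fold change 0.66) and at 37.7, 38.8 and 37.7 CPM in those labelled mHAR123 (0.51), above the hHAR123 range of 27.1 to 27.7 CPM. NOG was at 5.68, 5.28 and 5.34 CPM (0.74) and at 5.12, 5.38 and 4.89 CPM (0.68), above the hHAR123 range of 2.66 to 4.01 CPM. The other 5 members passed neither threshold. Their log2 fold changes in the libraries labelled cHAR123 and mHAR123 were -0.51 and -0.45 for BMP6, 0.17 and 0.11 for BMP7, 0.11 and 0.25 for GDF6, 0.08 and 0.13 for CHRD, and 0.90 and 0.68 for GREM1.

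Neural crest markers moved in the replacement genotypes as well. Their sum was 282 to 294 CPM in the libraries labelled cHAR123 and 324 to 332 CPM in those labelled mHAR123, with 7 of 8 higher than in hHAR123 in each. The roof plate and dorsal neural tube sum was 112 to 116 CPM, with 4 of 8 higher, under the label cHAR123 and 83.8 to 89.5 CPM, with 0 of 8 higher by edgeR, under the label mHAR123. Neuroectoderm markers summed to 2001 to 2051 and 1961 to 1990 CPM. Their part in the levels of BMP4, BMP5 and GDF7 was not tested.

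Against HAR123-KO neuroectoderm, BMP2, BMP4, BMP5, GDF7 and NOG were lower under both labels, 5 of 10 members tested for cHAR123 and 5 of 9 for mHAR123. Of all genes tested, 3.91% and 3.78% were lower. In the libraries labelled cHAR123 the log2 fold changes were -3.01 (SE 0.10) for BMP4, -2.60 (SE 0.07) for BMP5, -1.94 for GDF7 (SE 0.05) and NOG (SE 0.09), and -1.26 (SE 0.04) for BMP2. In those labelled mHAR123 they were -2.85 (SE 0.11) for BMP4, -2.34 (SE 0.06) for GDF7, -2.19 (SE 0.07) for BMP5, -2.0 (SE 0.09) for NOG and -1.42 (SE 0.04) for BMP2. The replacement genotypes thus lay between hHAR123 and HAR123-KO for these 5 genes, with no overlap between the libraries of the knockout and those of any other genotype.

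BMP7 and CHRD passed only the p threshold against HAR123-KO. BMP7 differed by -0.94 under the label cHAR123 and by -0.999 under the label mHAR123, and CHRD by 0.74 and 0.79. Without HAR123-KO replicate 2 or 3 or mHAR123 replicate 1 or 3, BMP7 passed both thresholds under the label mHAR123, at most at -1.02. BMP6 was higher under the label cHAR123 than in HAR123-KO, by 1.63 (SE 0.46, adjusted p = 0.00225). It was not called without HAR123-KO replicate 3 (1.28), without cHAR123 replicate 1 (1.55) or 2 (1.56), or with DESeq2 (1.65). Of all genes tested, 3.7% were higher under the label cHAR123 and 3.55% under the label mHAR123. Between the replacement genotypes, GDF7 alone passed the p threshold, at -0.40 (SE 0.08, adjusted p = 0.000214) in the libraries labelled mHAR123 relative to those labelled cHAR123, and no member was called by edgeR where 0.261% of all genes tested were.

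**Figure D3:**
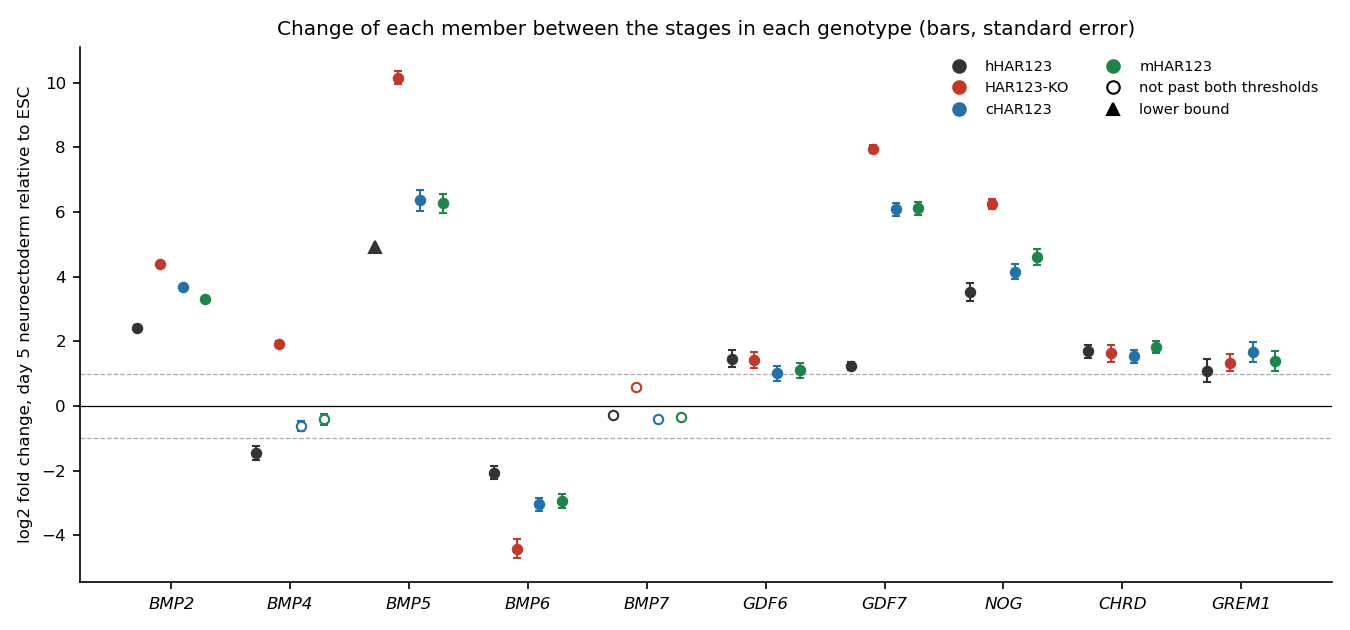
Log2 fold change of the 10 genes from hESCs to day 5 neuroectoderm in each genotype, with bars for the standard error, open points for changes not past both thresholds and a triangle for the lower bound of BMP5 in hHAR123, whose hESC libraries had no count. GDF7 lies at 1.24 in hHAR123 and between 6.08 and 7.95 in the edited genotypes, and BMP4 lies at -1.45 in hHAR123 and 1.92 in HAR123-KO.

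For cHAR123 and mHAR123, changes between the stages rest on the neuroectoderm column labels named above. From hESCs to neuroectoderm, 8 of 10 members rose and 1 fell in HAR123-KO, and 7 rose and 1 fell in each of cHAR123 and mHAR123. Of all genes tested, 22% rose and 19.1% fell in HAR123-KO, 21.9% and 20.8% in cHAR123, and 21.3% and 20.7% in mHAR123. BMP6 was the member that fell in all 4 genotypes. Its log2 fold change was -4.42 (SE 0.29) in HAR123-KO, -3.04 (SE 0.21) in cHAR123 and -2.94 (SE 0.21) in mHAR123.

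BMP4 moved in opposite directions in 2 genotypes. It fell in hHAR123 and rose in HAR123-KO, from 5.31, 4.49 and 4.42 CPM to 20.2, 20.1 and 21.0 CPM, a log2 fold change of 1.92 (SE 0.09). In cHAR123 it passed the p threshold alone at -0.62, and in mHAR123 it passed neither at -0.42 (adjusted p = 0.0151). The difference between HAR123-KO and hHAR123 was tested as an interaction over 12 libraries and was 3.35 (SE 0.21, adjusted p = 1.29e-18) on the log2 scale.

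GDF7 rose by a log2 fold change of 7.95 (SE 0.13) in HAR123-KO, 6.08 (SE 0.19) in cHAR123 and 6.11 (SE 0.21) in mHAR123, from low hESC levels in all 3. Without hESC replicate 3, the value in cHAR123 was 7.06. The interactions against hHAR123 were 6.69 (SE 0.26) for HAR123-KO, 4.81 (SE 0.29) for cHAR123 and 4.86 (SE 0.30) for mHAR123, the largest of any member in each genotype. Without cHAR123 hESC replicate 3 the second of these was 5.83. Against hHAR123, GDF7 was thus lower in hESCs of all 3 edited genotypes and higher in neuroectoderm of HAR123-KO and cHAR123, whereas in mHAR123 neuroectoderm it passed the p threshold alone.

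NOG rose by 6.25 (SE 0.16) in HAR123-KO, 4.15 (SE 0.24) in cHAR123 and 4.60 (SE 0.24) in mHAR123, and its interaction for HAR123-KO was 2.70 (SE 0.50, adjusted p = 1.21e-05). That interaction rests on hESC libraries with 4 to 10 counts of NOG, too few for a test between genotypes in hESCs alone. BMP2 rose by 4.41 (SE 0.06), 3.67 (SE 0.08) and 3.31 (SE 0.08). Its interactions were 1.96 (SE 0.11) for HAR123-KO and 1.22 (SE 0.13) for cHAR123, and that for mHAR123, 0.87, passed the p threshold alone. BMP6 had an interaction of -2.38 (SE 0.43) for HAR123-KO, its fall being steeper there. The interaction of BMP4 for mHAR123, 1.02 (SE 0.28, adjusted p = 0.00679), was close to the fold threshold and was not called with DESeq2 (1.07), with library totals (0.92), or without any 1 of 9 of the 12 libraries, where it was 0.86 to 1.06.

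In all, 4 of 10 members had a higher and 1 a lower interaction for HAR123-KO (3.84% and 4.03% of all genes tested), 2 a higher one for cHAR123 (0.24% higher and 0.557% lower) and 2 a higher one for mHAR123 (0.304% higher and 0.663% lower). BMP7 for HAR123-KO passed the p threshold alone at 0.86 (SE 0.10). GDF6 at -0.07, CHRD at -0.09 and GREM1 at 0.23 passed neither. BMP5, with no count in the hHAR123 hESC libraries, had an interaction for HAR123-KO of 1.09 with an SE of 2.02, so the difference was not measurable at this depth.

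BMP5, CHRD, GREM1 and GDF6 rose in all 4 genotypes. BMP5 rose in HAR123-KO from 2 counts over 3 hESC libraries to 2609 counts over 3 neuroectoderm libraries, a ratio of 1560 per total count with an exact 95% counting interval of 431 to 12886. In cHAR123 and mHAR123 it rose by 6.36 and 6.27 on the log2 scale. Leaving out the hESC library with counts, replicate 2 in each, gave 10.18 and 10.67 with no count left in hESCs, and such values are no bound. Leaving out other hESC libraries moved the BMP5 values too, to 5.73 without cHAR123 replicate 3 and to 5.60 without mHAR123 replicate 1.

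CHRD rose by 1.62, 1.53 and 1.83 and GREM1 by 1.34, 1.67 and 1.40 in HAR123-KO, cHAR123 and mHAR123. GDF6 rose by 1.42, 1.02 and 1.10. It was not called in cHAR123 without hESC replicate 3 (0.82), without neuroectoderm replicate 1 (0.97), with DESeq2 (0.96) or its size factors (0.98), or in a fit of all 24 libraries (0.998), nor in mHAR123 without hESC replicate 3 (0.97). BMP7 passed the p threshold alone in each, at 0.59 in HAR123-KO, -0.42 in cHAR123 and -0.35 in mHAR123, and at 0.79, -0.21 and -0.18 with library totals.

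**Figure D4:**
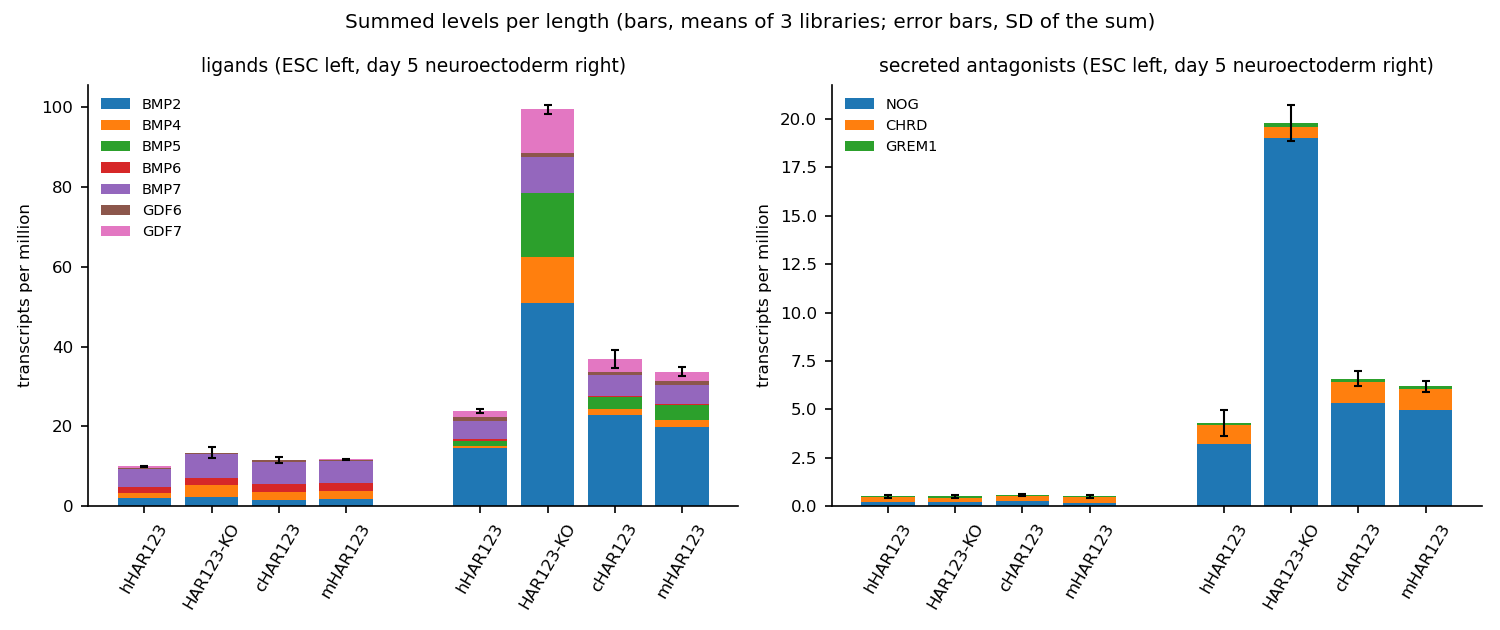
Summed TPM of the 7 ligands and of the 3 antagonists in each genotype at both stages, stacked by gene, with bars of means over 3 libraries and error bars for the SD of the sum. The ligand sum reaches 99.5 in HAR123-KO neuroectoderm and 23.8 in hHAR123 neuroectoderm, and NOG makes up most of the antagonist sum in neuroectoderm.

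Added up per length, ligand RNA was 9.96 ± 0.225 TPM in hHAR123 hESCs and 13.4 ± 1.41, 11.6 ± 0.712 and 11.7 ± 0.105 TPM in HAR123-KO, cHAR123 and mHAR123 hESCs. BMP7 made up the largest share in each, 45.0%, 44.2%, 49.3% and 46.5%. In neuroectoderm the ligand sum was 23.8 ± 0.599 TPM in hHAR123, 99.5 ± 1.22 TPM in HAR123-KO, 36.9 ± 2.22 TPM in the libraries labelled cHAR123 and 33.7 ± 1.14 TPM in those labelled mHAR123. BMP2 took the largest share there, 61.1%, 51.1%, 62.2% and 59.1%.

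Behind BMP2 the mixture differed between the genotypes. In hHAR123 neuroectoderm BMP7 was next with 19.4% of ligand RNA, then GDF7 with 6.18%, BMP5 with 5.41%, GDF6 with 3.81% and BMP4 with 2.38%. In HAR123-KO neuroectoderm BMP5 was next with 16.1%, then BMP4 with 11.6%, GDF7 with 11% and BMP7 with 9.21%. As levels in the knockout, BMP5 was at 16.0 ± 0.498 TPM, BMP4 at 11.5 ± 0.176 TPM, GDF7 at 10.9 ± 0.255 TPM and BMP7 at 9.17 ± 0.361 TPM. This order rests on the exon lengths used, 9267 bases for GDF7, 5425 for BMP7, 3970 for BMP5 and 3096 for BMP4. Without division by length, GDF7 was at 57.7 CPM, BMP5 at 36.4, BMP7 at 28.4 and BMP4 at 20.4 CPM. BMP4 and BMP6 were at 0.569 and 0.412 TPM in hHAR123 and at 11.5 and 0.0846 TPM in HAR123-KO.

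The antagonist sum was 0.502 ± 0.0729 TPM in hHAR123 hESCs, of which CHRD made up 49.4% and NOG 43.4%. In neuroectoderm it was 4.31 ± 0.662 TPM in hHAR123, 19.8 ± 0.940 TPM in HAR123-KO, 6.59 ± 0.408 TPM in the libraries labelled cHAR123 and 6.19 ± 0.289 TPM in those labelled mHAR123. NOG made up 74.1%, 95.9%, 81.2% and 80.3% of it, and CHRD 23.5%, 2.94%, 16.0% and 17.2%. Ligand and antagonist RNA were therefore both most abundant in HAR123-KO neuroectoderm.

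Other genes of the pathway, and related ligands of the BMP and GDF family, were followed in lists. Of all genes tested in HAR123-KO neuroectoderm, 4.92% were higher and 4.52% lower than in hHAR123. The BMP-induced target genes had the most calls in HAR123-KO neuroectoderm, 7 higher and 4 lower of 12 tested among 13, with a median log2 fold change of 1.29. The largest were GATA3, a regulator of non-neural ectoderm, with 80 counts over the knockout libraries and 5 over those of hHAR123 (ratio 15.3, exact 95% counting interval 6.30 to 48.4), and MSX1, a homeobox gene of the dorsal midline and neural plate border, at 45.0 ± 1.37 CPM against 3.82 ± 0.351 CPM (log2 fold change 3.61, SE 0.08). The others were named after their values were seen. ID1 (1.57), ID3 (1.52) and ID2 (1.06), the inhibitors of differentiation that are standard readouts of BMP signalling, were higher, as were MSX2 (3.44) and TFAP2A (3.55). ID4 (-1.54), GATA2 (-2.04), DLX5 (-2.48) and DLX6 (-1.60) were lower. The list thus did not move in a single direction. It shares MSX1, TFAP2A, GATA3 and HAND1 with the marker lists above, so the target and marker lists are not independent.

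The remaining lists held fewer calls. Of 9 ligands tested among 15 outside the members, MSTN, which restrains muscle growth, was higher with 156 counts against 7 (ratio 21.3, interval 10.1 to 53.9), and GDF10, also known as BMP3B, was at 12.8 ± 0.387 CPM against 0.812 ± 0.302 CPM (4.02, SE 0.16). The 3 lower ones, named after their values were seen, were BMP8B (-2.40), BMP8A (-1.80) and GDF15 (-1.44), and BMP8A and BMP8B are near-identical copies between which reads could be divided. Of 15 antagonists and modulators tested among 20, 4 were higher and 2 lower. SOSTDC1, which antagonizes both BMP and WNT ligands, was higher with 74 counts against 9 (ratio 7.87, interval 3.93 to 17.9). BMPER, which binds BMPs outside the cell, was at 6.15 ± 0.560 CPM against 1.56 ± 0.366 CPM (2.01).

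Receptors and transducers held too few calls to set apart from the share among all genes tested. Of 7 receptors, ACVRL1, a type I receptor best known from endothelium, was higher (1.78), at 0.543 ± 0.101 CPM against 0.158 ± 0.166 CPM. Its SD in hHAR123 exceeded its mean, so the size of this change is uncertain. Of 8 transducers and inhibitors inside the cell, SMAD9 was higher (1.09), at 7.40 ± 0.492 CPM against 3.59 ± 0.767 CPM. Of 5 proteases tested among 6 that process BMPs or chordin, TLL2, a tolloid-like protease, was lower (-1.60). The medians were 0.03 for the other ligands, 0.08 for the other antagonists, 0.06 for the receptors, -0.07 for the transducers and -0.40 for the proteases.

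**Figure D5:**
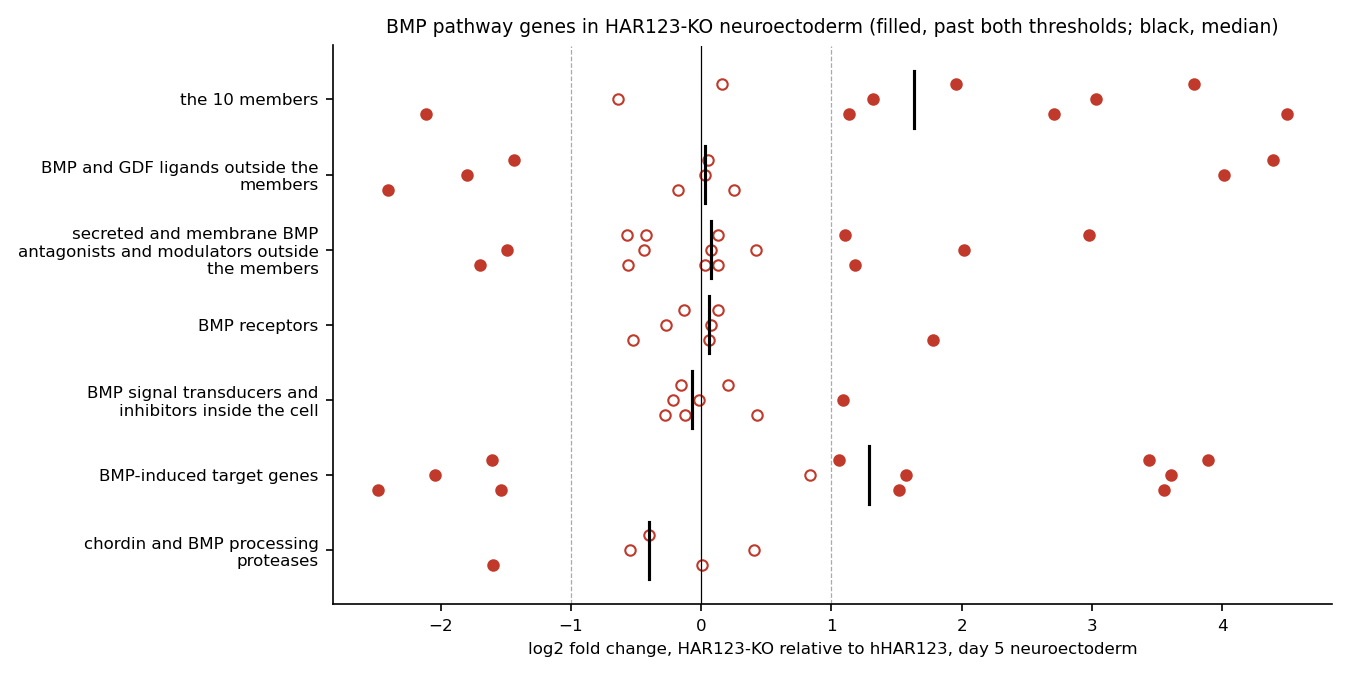
Log2 fold change in HAR123-KO relative to hHAR123 neuroectoderm for the 10 members and for 6 lists of BMP pathway genes and related ligands, filled where past both thresholds, with a black mark at each median. The members and the BMP-induced targets have medians of 1.63 and 1.29, and the other lists have medians between -0.40 and 0.08.

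In the replacement genotypes few list genes were called in neuroectoderm. Of all genes tested there, 0.522% were higher and 0.456% lower under the label cHAR123, and 0.603% and 0.429% under the label mHAR123. GDF10 was higher under both labels, by 1.02 for cHAR123 and 1.68 for mHAR123. Of 11 targets tested, MSX1 (1.23) and MSX2 (1.07) were higher in the libraries labelled cHAR123 and TFAP2A (1.01) in those labelled mHAR123, where GDF15 was lower (-1.03). In hESCs the only calls against hHAR123 in these lists were CER1, a secreted antagonist of BMP and Nodal ligands, higher in HAR123-KO and cHAR123, and GDF15, higher in mHAR123. Of all genes tested in hESCs, 0.96% were higher in HAR123-KO, 0.626% in cHAR123 and 1.03% in mHAR123.

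The genes whose levels followed each member most closely over the 24 libraries were found by the correlation of log2 CPM among 17513 genes. The libraries share stages and genotypes, so these values describe them only. The closest were ROBO1 (r = 0.994), TCF12 (0.994) and CPE (0.993) for BMP2, CDH6 (0.993), NDST4 (0.992) and ZMIZ1 (0.992) for NOG, PRKD1 (0.988), FZD10-AS1 (0.987) and AP1M1 (0.986) for BMP5, and TNFAIP2 (0.986), RBPMS (0.985) and SYNJ2 (0.981) for BMP6. They were ZSCAN1 (0.975), TBC1D3H (0.970) and TBC1D3F (0.969) for CHRD, PCDH10 (0.972), DACT1 (0.964) and ADAMTS15 (0.960) for BMP4, PRDX2 (0.969), CHD7 (0.963) and MPP2 (0.962) for GDF7, and ECEL1 (0.955), CEP85L (0.952) and ITPKB (0.947) for BMP7. For GDF6 they were ENSG00000279168 (0.965), LINC01266 (0.964) and AKAP8L (0.963), and GREM1 averaged under 1 CPM and was not compared. No member was among the closest genes of another.

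Genes on the opposite strand overlap exons of 5 members, and whether counting used strand is not given in the sources used here. TXNDC5 shares 212 exon bases with BMP6 and held 84 to 359 counts, THPO shares 361 with CHRD and held 12 to 55, and ENSG00000270100 shares 679 with GDF7 and held 0 to 17. ENSG00000287156 shares 506 bases with BMP4 and held 0 to 8 counts, and GREM1-AS1 shares 367 with GREM1 and held 0 to 3. Reads of these pairs cannot be told apart where exons overlap if strand was not used.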

How the data were processed

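Ribosomal RNA-depleted, directional libraries were sequenced in paired ends. The authors aligned reads to GRCh38 with STAR 2.5.2b and deposited 1 table of raw counts per gene, made with featureCounts of the Subread package. Versions of the other tools are not given in the sources used here. A broken entry of 1 gene, spread over 3 lines, was left out, and 61551 genes were used. Replicate libraries differed by more than counting noise, so none was counted as a repeat reading of another. In 24 pairs, chi-square divided by its degrees of freedom was 1.40 to 4.97. This comparison cannot tell whether libraries came from the same clone.

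Samples were grouped by genotype and stage from the labels. Counts were filtered with filterByExpr, scaled with TMM and tested with edgeR 4.0.16 (quasi-likelihood, R 4.3.3, limma 3.58.1) on the libraries of each comparison. The p-values were adjusted by Benjamini-Hochberg over all genes tested, and 12 libraries entered each interaction. CPM used library totals and TPM the exon lengths of the table. Tests were checked on simulated counts. Alternatives were DESeq2 1.42.0, its size factors, no filter, wider fits, a replicate block, each library left out and, chosen after seeing the data, library totals in place of TMM.

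All 10 members were named. For each pathway list, the 2 called genes with the largest change in HAR123-KO neuroectoderm were named, and for each member averaging at least 1 CPM, the 3 genes with the highest Pearson correlation of log2 CPM (prior count 2). The members and lists were chosen with earlier results of these data known. Promoter windows came from RefSeq.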

Additional observations from a re-analysis of the deposited data

Results flagged for a closer look

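The change from hESCs to neuroectoderm differed between an edited genotype and hHAR123 for 5 members, by a test of the interaction with edgeR over 12 libraries (log2 scale, adjusted over all genes). For HAR123-KO it was 6.69 for GDF7, 3.35 for BMP4, 2.70 for NOG and 1.96 for BMP2, and it was -2.38 for BMP6. For cHAR123 it was 4.81 for GDF7 and 1.22 for BMP2. For mHAR123 it was 4.86 for GDF7 and 1.02 for BMP4. GDF7 differed in all 3 genotypes, and its hESC levels in them were 2 to 11 counts per library. NOG held 4 to 10 counts per hESC library in HAR123-KO and hHAR123. The values for cHAR123 and mHAR123 rest on the neuroectoderm column labels. All 3 comparisons share the hHAR123 libraries.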

How the results depend on the processing

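Depth limited BMP5 and NOG in hESCs, GDF7 in hESCs of the edited genotypes and BMP6 in HAR123-KO neuroectoderm, where a few counts per library set the value. Replicate numbers did not pair the samples, since the correlations of same-numbered libraries' deviations ran from -0.0322 to 0.0421. With the replicate number as a block, 6 members in place of 5 were lower in mHAR123 than in HAR123-KO neuroectoderm, because BMP7 moved from -0.999 to -1.00007, and no other call on a member depended on the block. BMP7 also passed there without the filter (-1.0027), with library totals (-1.01) and in a fit of all 12 libraries (-1.02).

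The count of members higher in cHAR123 than in HAR123-KO neuroectoderm was 1, and it was 0 with DESeq2 and 0 to 1 with each library left out. The same count for mHAR123 was 0, and it was 1 without the filter and 1 in a fit of all 12 libraries, where BMP6 could be tested, and 0 to 1 with each library left out. The count of members with a higher interaction for mHAR123 was 2, and it was 1 with DESeq2, 1 with library totals and 1 to 2 with each library left out. Where the cause is not named, the cause was not tested.

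Signs turned only for values past neither threshold. BMP2 in HAR123-KO against hHAR123 hESCs was 0.0077 with library totals and -0.046 to 0.0092 with each library left out. The other ranges with each library left out were -0.10 to 0.41 for GDF6 in HAR123-KO, -0.015 to 0.45 for CHRD in cHAR123 and -0.18 to 0.21 for CHRD in mHAR123 hESCs, and -0.0013 to 0.25 for GDF6 in HAR123-KO neuroectoderm. For the HAR123-KO interaction they were -0.25 to 0.26 for GDF6, -0.29 to 0.10 for CHRD and -0.045 to 0.47 for GREM1. With a library left out, 817 values kept their direction and side of the threshold, 19 lost a call, 4 gained one and 18 turned sign.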
